A study of Arabidopsis thaliana with 6 samples.

Results

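The egg cell genes described here are the 5 EC1 genes (EC1.1 to EC1.5) and the aspartic protease genes ECS1 and ECS2 of Arabidopsis thaliana. They were chosen by gene identifier as a family and a gene pair known for egg cell expression, 7 of the 33977 genes in the count table. RNA of whole mature ovules was compared between a group labelled PRP8Aa prp8bb and wild type (WT), with 3 libraries in each. PRP8Aa prp8bb plants carry T-DNA insertions in PRP8A and PRP8B, which encode PRP8, a core protein of the spliceosome. Per the labels, their ovules were a mixture of PRP8A;prp8b and prp8a;prp8b genotypes. Read as alleles, the name PRP8Aa prp8bb gives the plants, and so the maternal tissue of every ovule, an intact beside a disrupted copy of PRP8A and no intact copy of PRP8B. The mixture then concerns the haploid embryo sacs, all with prp8b and some with prp8a. WT ovules carried neither insertion. Both groups came from flowers of stage 13 to 14 on plants 6 weeks old. At that stage the embryo sac, the structure that holds the egg cell, is mature.

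The egg cell is a single cell inside an ovule made mostly of maternal tissue, so its transcripts are a small part of ovule RNA. When sperm cells arrive, the egg cell secretes the small cysteine-rich EC1 proteins, which make the sperm cells bring the fusion protein HAP2 to their surface. ECS1 and ECS2 are endopeptidases that the egg cell releases after fertilization, and they cleave LURE1, the peptide by which synergids attract pollen tubes, so that further tubes stay away.

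All 7 genes lie in a single exon (coordinates of TAIR10). EC1.1 (AT1G76750) lies at chr1:28811040-28811721 on the plus strand, EC1.4 (AT4G39340) at chr4:18293129-18293512 on the minus strand and EC1.5 (AT5G64720) at chr5:25872305-25872833 on the minus strand. EC1.2 (AT2G21740) at chr2:9281986-9282387 and EC1.3 (AT2G21750) at chr2:9283367-9283774 are neighbours on the minus strand, 980 bases apart. ECS1 (AT1G31450) lies at chr1:11259851-11261234 on the minus strand and ECS2 (AT2G35615) at chr2:14959386-14960828 on the plus strand. A 60-base stretch of the coding sequence of each EC1 gene (RefSeq, TAIR10.1) is shown because it is a part that all 5 copies share. Capitals mark the 25 bases that are identical in all 5.
EC1.1: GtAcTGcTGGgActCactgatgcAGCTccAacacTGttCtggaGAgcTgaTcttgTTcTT
EC1.2: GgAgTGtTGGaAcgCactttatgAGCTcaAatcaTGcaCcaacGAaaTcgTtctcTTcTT
EC1.3: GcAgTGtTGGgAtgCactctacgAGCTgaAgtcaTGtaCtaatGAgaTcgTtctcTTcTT
EC1.4: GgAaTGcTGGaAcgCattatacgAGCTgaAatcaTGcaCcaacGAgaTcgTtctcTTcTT
EC1.5: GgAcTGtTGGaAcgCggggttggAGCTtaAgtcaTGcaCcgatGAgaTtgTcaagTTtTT

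Over the whole alignment of the 5 coding sequences, 113 of 345 columns without gaps were identical in all. The neighbours EC1.2 and EC1.3 were the most alike (82.8% identity), and EC1.1 and EC1.5 the least (61.8%). ECS1 and ECS2 were 78.4% identical. Their most similar 60 bases, identical at 58 positions, show where fragments of one gene would be hardest to tell from the other, and capitals mark the 2 bases that differ.
ECS1: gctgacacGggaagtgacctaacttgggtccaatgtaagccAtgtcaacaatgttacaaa
ECS2: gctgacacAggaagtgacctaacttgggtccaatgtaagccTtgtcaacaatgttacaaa

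Reads of 100 bases were taken from both ends of each fragment. For EC1.1, EC1.3, EC1.4, EC1.5, ECS1 and ECS2, no stretch of 50 bases recurs elsewhere in the genome. For EC1.2, 47 of 353 such stretches recur. They lie at chr2:9281986-9282131, the 3′ end of the gene, and match chr2:9333002-9333147, 50.6 kb away, at 145 of 146 bases. No gene is annotated at that second place, and how the authors treated fragments with several matches is not given in the sources used here. EC1.2 values are therefore uncertain in this respect. EC1.1 overlaps 2 genes and EC1.2 overlaps 1 gene on the opposite strand, and the counting took strand into account.

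Upstream of the gene models, the sequence TATAAA, read on the gene's own strand, occurred within 250 bases of the annotated start in 6 of the 7 genes, against 32.9% of 27432 protein-coding genes. The match nearest to the start is shown in capitals for those 6 genes, with 10 bases before it and 24 after.
EC1.1: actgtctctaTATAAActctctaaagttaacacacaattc
EC1.2: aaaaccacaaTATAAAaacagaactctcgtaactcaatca
EC1.3: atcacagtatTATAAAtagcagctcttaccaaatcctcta
EC1.4: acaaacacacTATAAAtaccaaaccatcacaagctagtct
ECS1: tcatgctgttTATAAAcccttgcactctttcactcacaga
ECS2: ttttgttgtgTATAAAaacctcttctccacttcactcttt

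From the first T to the annotated start of the gene the distance was 32 bases in EC1.1 and 53, 43 and 64 bases in EC1.2, EC1.3 and EC1.4. It was 48 bases in ECS1 and 55 bases in ECS2. EC1.5 held no TATAAA in this window. The motif GTAACNT, known from promoters that the synergid regulator MYB98 binds, occurred on either strand of the same window in EC1.3 and in none of the other 6 genes, against 11.4% of protein-coding genes. These matches are descriptions of sequence and say nothing about binding.

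The libraries held 12644525, 11278367 and 11261844 gene counts in PRP8Aa prp8bb replicates 1, 2 and 3, and 8497702, 12436159 and 12460805 in WT replicates 1, 2 and 3. PRP8A (log2 fold change -0.32, edgeR adjusted p = 0.105) and PRP8B (0.22, adjusted p = 0.251) did not pass the test in level, although PRP8A did with DESeq2 (adjusted p = 0.0248) and neither gene's groups overlapped. In WT replicate 1 the gene counts of all 7 egg cell genes were exactly 2 times their counts over exon bins, while in the other 5 libraries the values differed by at most 1. Over all genes, 77.6% of the nonzero gene counts of WT replicate 1 were even, against 47.7% to 48.6% in the other 5 libraries. Counts given below for WT replicate 1 may therefore be doubled. The tests below were repeated with this library halved and without it. The share of PRP8B exon counts that lay in its 3′ part, past a boundary placed in earlier work after values had been seen, was 32.0%, 6.71% and 18.1% in PRP8Aa prp8bb replicates 1, 2 and 3, against 27.8%, 35.7% and 37.8% in WT. PRP8Aa prp8bb replicate 1 lay above WT replicate 1 and below WT replicates 2 and 3. It was thus within the WT range only through WT replicate 1. This share alone does not settle the label of PRP8Aa prp8bb replicate 1. The group is therefore named by its label throughout, and results are also given without that library. Mitochondrial genes took 14.5% of the counts in PRP8Aa prp8bb replicate 2, against 2.41% to 6.51% in the other 5 libraries. Its part in the results was not tested.

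In the libraries labelled PRP8Aa prp8bb, 6 of the 7 egg cell genes fell, to between 26.0% and 34.6% of their WT level. EC1.2 did not pass the test. Of all 19297 genes tested, 2.79% passed the threshold (Benjamini-Hochberg adjusted p under 0.05 in edgeR's quasi-likelihood test) in the downward direction, 3.05% upward and 5.85% in either direction, and the median log2 fold change of all genes was -0.01. Summed over the 7 genes, the level was 15.3 ± 4.36 CPM (counts scaled by TMM-adjusted library size) in the libraries labelled PRP8Aa prp8bb and 46.5 ± 3.83 CPM in WT (SD, n = 3 each). In whole ovules, fewer egg cells and less RNA per egg cell cannot be told apart.

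**Figure D1:**
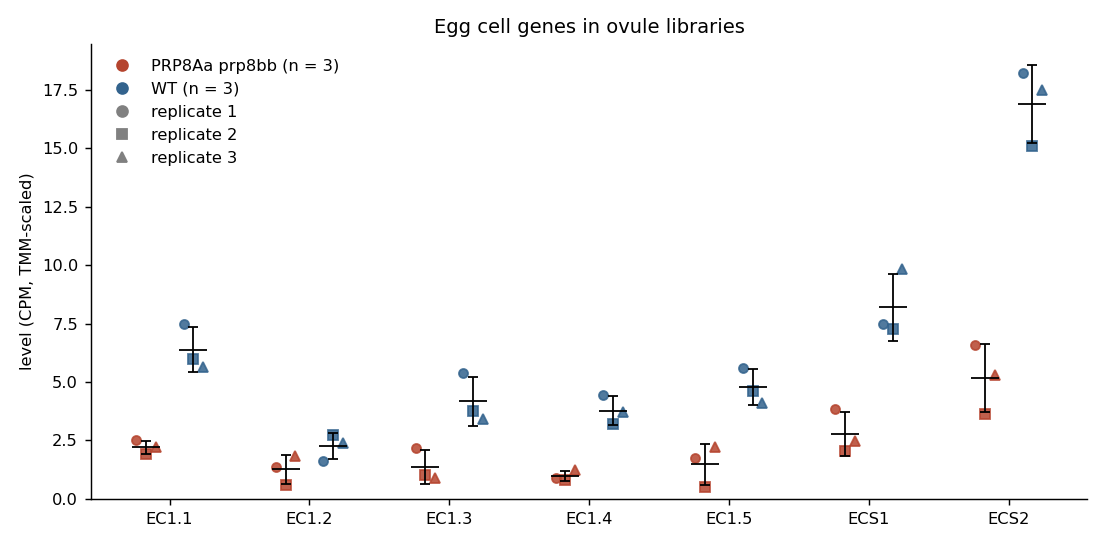
Level (vertical axis, CPM scaled by TMM) of the 7 egg cell genes (horizontal axis) in the 3 libraries labelled PRP8Aa prp8bb (left, red) and the 3 WT libraries (right, blue). Symbols stand for replicates and black bars for the mean ± SD (n = 3). The groups overlap for EC1.2 and do not overlap for the other 6 genes.

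EC1.1 had 2.50, 1.93 and 2.20 CPM in PRP8Aa prp8bb replicates 1, 2 and 3, against 7.48, 6.00 and 5.65 CPM in WT. These values rest on 33, 19 and 25 counts in PRP8Aa prp8bb and 64, 77 and 73 counts in WT. Every PRP8Aa prp8bb library was lower than every WT library. The log2 fold change was -1.51 (SE 0.24, edgeR quasi-likelihood test, adjusted p = 0.00591).

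EC1.4 had the lowest fold change of the 7 genes. It had 0.908, 0.811 and 1.23 CPM in PRP8Aa prp8bb, against 4.44, 3.20 and 3.71 CPM in WT (12, 8 and 14 counts against 38, 41 and 48). The groups stood far apart, and the 3 PRP8Aa prp8bb libraries were close to each other. The log2 fold change was -1.92 (SE 0.32, edgeR adjusted p = 0.00706).

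EC1.3 and EC1.5 fell with a wider spread. EC1.3 had 2.19, 1.01 and 0.882 CPM in PRP8Aa prp8bb, against 5.38, 3.74 and 3.40 CPM in WT (log2 fold change -1.56, SE 0.38, edgeR adjusted p = 0.0426). Replicate 1 was the highest of the PRP8Aa prp8bb group for this gene, and the groups did not overlap. EC1.5 had 1.74, 0.507 and 2.20 CPM in PRP8Aa prp8bb, against 5.61, 4.6 and 4.1 CPM in WT (log2 fold change -1.64, SE 0.40, edgeR adjusted p = 0.0419). Its lowest library, PRP8Aa prp8bb replicate 2, rests on 5 counts. Leaving out WT replicate 1, 2 or 3 or PRP8Aa prp8bb replicate 3 ended the call for both genes (edgeR adjusted p from 0.0711 to 0.185), and so did leaving out PRP8Aa prp8bb replicate 2 for EC1.3 (0.104) and PRP8Aa prp8bb replicate 1 for EC1.5 (0.0696). With exon bin counts in place of gene counts, adjusted p was 0.076 for EC1.3 and 0.0643 for EC1.5.

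EC1.2, the tandem neighbour of EC1.3, had 1.36, 0.608 and 1.85 CPM in PRP8Aa prp8bb, against 1.64, 2.73 and 2.40 CPM in WT. PRP8Aa prp8bb replicate 3 lay above WT replicate 1, so the groups overlapped. The log2 fold change was -0.82 (SE 0.41, edgeR adjusted p = 0.32). The counts were 18, 6 and 21 in PRP8Aa prp8bb and 14, 35 and 31 in WT. In simulated data the test recovered 56% of genes lowered 2-fold, but these were drawn from genes of all levels past the count filter. The share recovered at the counts of EC1.2 was not simulated.

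The proteases had more counts. ECS2 had 6.58, 3.65 and 5.29 CPM in PRP8Aa prp8bb, against 18.2, 15.1 and 17.5 CPM in WT (87, 36 and 60 counts against 156, 193 and 226). Its log2 fold change was -1.69 (SE 0.21, edgeR adjusted p = 0.00181), with the smallest SE of the 7 genes and no overlap of the groups. ECS1 had 3.86, 2.03 and 2.47 CPM in PRP8Aa prp8bb, against 7.48, 7.25 and 9.83 CPM in WT (log2 fold change -1.54, SE 0.27, edgeR adjusted p = 0.00908). Its groups did not overlap either, but its adjusted p was 0.0651 without WT replicate 3 and 0.0634 without PRP8Aa prp8bb replicate 3.

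**Figure D2:**
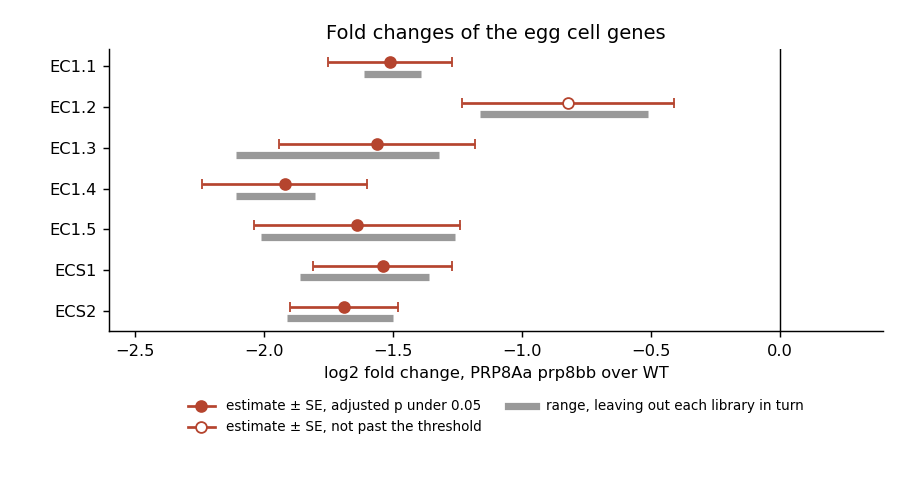
Log2 fold change (horizontal axis, PRP8Aa prp8bb over WT) of the 7 egg cell genes (vertical axis). Points with bars are the estimate ± SE, filled where adjusted p was under 0.05, and grey bars span the estimates with each of the 6 libraries left out in turn. All estimates lie below 0, from -0.82 for EC1.2 to -1.92 for EC1.4.

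For 6 of the 7 genes no PRP8Aa prp8bb library reached the lowest WT library, as was the case for 12.9% of all genes tested. Within the PRP8Aa prp8bb group, replicate 2 was the lowest library for 6 of the 7 genes and replicate 3 for EC1.3. The summed level of the 7 genes was 19.1, 10.5 and 16.1 CPM in PRP8Aa prp8bb replicates 1, 2 and 3, against 50.2, 42.6 and 46.6 CPM in WT. Replicate 1, whose PRP8B share was the highest of its group, also had the highest summed egg cell level of its group. A link between that share and the egg cell level was not tested. Without PRP8Aa prp8bb replicate 1, 5 of the 7 genes fell (EC1.5 was lost). Without WT replicate 3 or PRP8Aa prp8bb replicate 3 the number was 3 (EC1.1, EC1.4 and ECS2). EC1.1, EC1.4 and ECS2 passed in all 16 alternative settings, and the estimate for each of the 7 genes was negative in all 16. In the authors' deposited table, which lists the same 6 genes and not EC1.2, the log2 fold changes ran from -1.51 for EC1.1 to -1.93 for EC1.4.

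Per length of the gene model, the levels of the genes lay close together. In the libraries labelled PRP8Aa prp8bb the level was 3.59 ± 1.02 RPKM for ECS2 and 3.34 ± 1.77 for EC1.3, followed by 3.24 ± 0.418 for EC1.1, 3.17 ± 1.56 for EC1.2, 2.80 ± 1.66 for EC1.5, 2.56 ± 0.578 for EC1.4 and 2.01 ± 0.690 for ECS1 (SD, n = 3). The ranges of all neighbours in this order overlapped. In WT the level was 11.7 ± 1.15 RPKM for ECS2 and 10.2 ± 2.58 for EC1.3, followed by 9.85 ± 1.63 for EC1.4, 9.35 ± 1.42 for EC1.1, 9.02 ± 1.45 for EC1.5, 5.91 ± 1.03 for ECS1 and 5.61 ± 1.4 for EC1.2. The single gap in the WT order lay between EC1.5 (lowest library 7.75 RPKM) and ECS1 (highest library 7.10 RPKM). ECS1 and EC1.2 were thus below the other 5 genes in WT, while in PRP8Aa prp8bb EC1.2 stood in the middle of the order.

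The EC1 family and the protease pair did not differ in their change beyond the spread between libraries. The log2 ratio of summed EC1 counts to summed ECS counts was -0.26, -0.22 and 0.11 in PRP8Aa prp8bb replicates 1, 2 and 3, against -0.07, -0.14 and -0.50 in WT. The groups overlapped, and the difference of 0.11 did not pass (exact two-sided permutation test, p = 0.6; the smallest p that 3 against 3 allows is 0.1).

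Within the family, EC1.2 took a larger and EC1.4 a smaller mean share in PRP8Aa prp8bb, but the groups overlapped for both. EC1.2 held 15.7%, 12.5% and 22.1% of the summed EC1 counts in PRP8Aa prp8bb, against 6.7%, 13.5% and 12.4% in WT. EC1.4 held 10.4%, 16.7% and 14.7% in PRP8Aa prp8bb, against 18.1%, 15.8% and 19.3% in WT. For both, the exact two-sided permutation test gave p = 0.2 and 0.5 after Benjamini-Hochberg adjustment over the 5 genes. The mean shares of EC1.1, EC1.3 and EC1.5 were 31.5%, 18.9% and 18.9% in PRP8Aa prp8bb, against 29.8%, 19.3% and 22.3% in WT (exact p from 0.7 to 1.0).

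**Figure D3:**
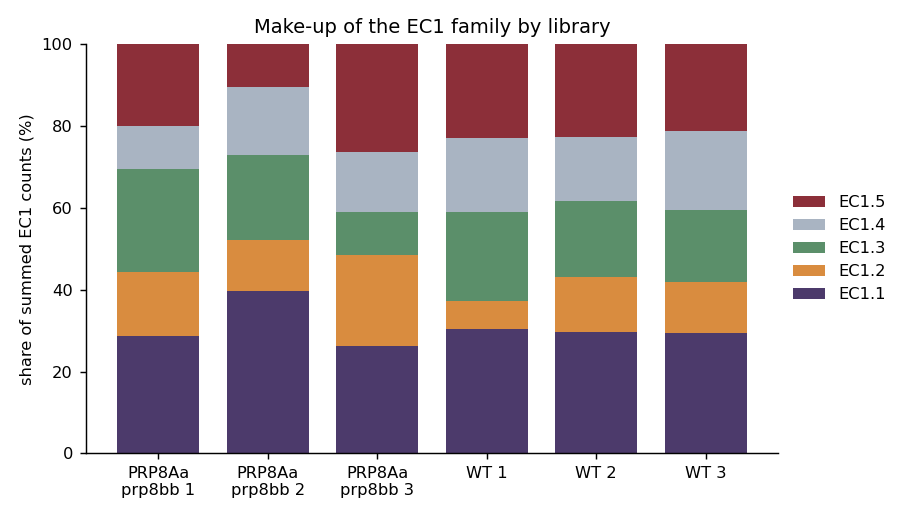
Share of each EC1 gene (vertical axis, % of the summed counts of the 5 genes) in the 3 libraries labelled PRP8Aa prp8bb (left) and the 3 WT libraries (right). EC1.1 holds 26.3% to 39.6% in PRP8Aa prp8bb and 29.3% to 30.5% in WT, so the make-up varies more among the PRP8Aa prp8bb libraries, which have fewer counts.

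Relatives of the members were read in the same fit. RefSeq describes 11 further genes as DUF1278 proteins or egg cell-secreted-like proteins, the family to which EC1 belongs, and this list was added after values had been seen. Of these, 7 had enough counts to be tested and 6 fell, with a median log2 fold change of -1.61 over the 7. AT2G27315 had 3.55, 2.13 and 3.62 CPM in PRP8Aa prp8bb, against 11, 8.81 and 9.05 CPM in WT (log2 fold change -1.61, SE 0.24, edgeR adjusted p = 0.00407). AT5G52975 was the tested relative that did not pass (-0.73, adjusted p = 0.161), although its groups did not overlap. The number that fell was 5 without PRP8Aa prp8bb replicate 1, 3 without PRP8Aa prp8bb replicate 3 and 2 without WT replicate 3. The 11 relatives summed to 28.4, 16.2 and 26.6 CPM in PRP8Aa prp8bb, against 72.7, 55.4 and 63.2 CPM in WT.

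Of 81 genes described as ECA1 gametogenesis family proteins, also small secreted cysteine-rich proteins, 26 were tested and 55 were below the count filter. Of the 26, 22 fell and 4 did not pass, with a median log2 fold change of -2.42. Some passed the filter only through WT, such as AT1G57760 (8, 2 and 7 counts in PRP8Aa prp8bb, 46, 45 and 66 in WT). This selection favours a fall, so the count and median do not describe all 81. Without PRP8Aa prp8bb replicate 3 the number that fell was 11, and without WT replicate 3 it was 12. Those with the smallest p were AT1G57760 (-3.22), AT3G30247 (-3.0), AT2G21655 (-2.75) and AT5G51105 (-1.89), the last of which carries the DUF1278 description too. By contrast, of 49 tested aspartic protease genes other than ECS1 and ECS2, 3 fell and 46 did not pass, with a median of 0.15. Without PRP8Aa prp8bb replicate 1, 5 others were higher, and without WT replicate 1, 2 were. The 3 were AT5G10770 (-1.65), CDR1 (-2.04), an aspartic protease known from disease resistance, and AT2G28010 (-2.56). AT2G28010 had 11, 3 and 5 counts in PRP8Aa prp8bb and 34, 38 and 38 in WT. It needed WT libraries to pass the filter, which favours a fall here too.

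**Figure D4:**
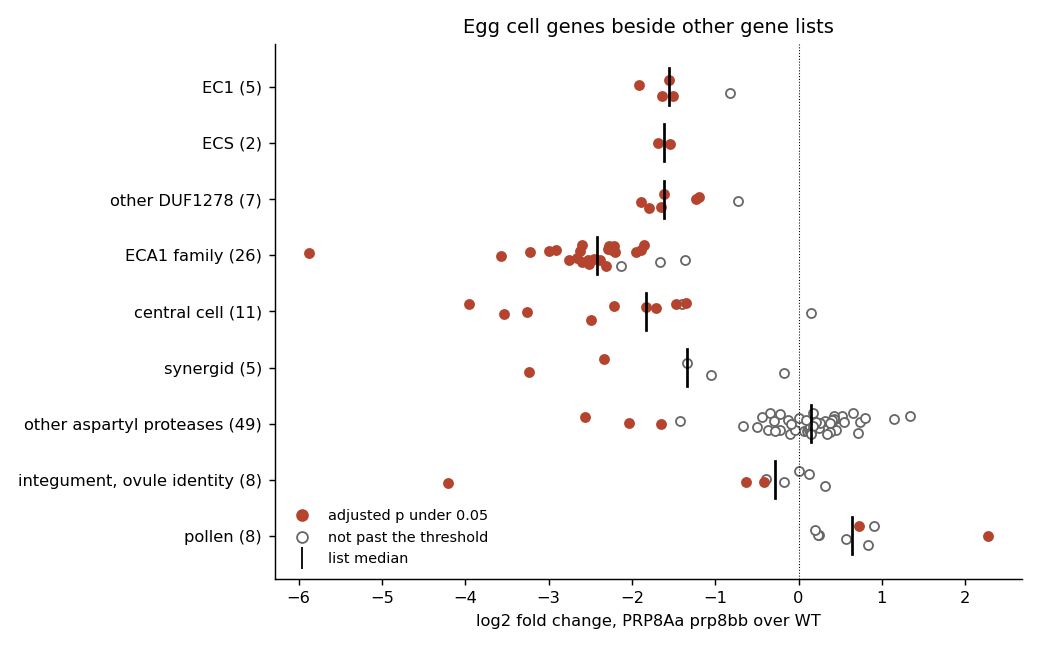
Log2 fold change (horizontal axis, PRP8Aa prp8bb over WT) of every tested gene in 9 lists (vertical axis, number of tested genes in brackets). Filled points passed adjusted p under 0.05, open points did not, and black bars are list medians. EC1 (-1.56), ECS (-1.61) and the other DUF1278 genes (-1.61) have similar medians, and the other aspartic proteases have a median of 0.15.

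Among 8 other listed egg cell regulators and egg cell genes, 2 had enough counts to be tested and neither passed, the zinc finger gene SUF4 (log2 fold change 0.11, adjusted p = 0.78) and the tetraspanin gene TET9 (0.21, adjusted p = 0.595). SUF4 is known to be expressed in other tissues too. RKD2, an RWP-RK factor of the egg cell, was below the count filter with 0, 0 and 1 counts in PRP8Aa prp8bb and 10, 7 and 4 counts in WT. RKD1, RKD3 and RKD4, of the same family, and the homeobox genes WOX2 and WOX8 had at most 3 counts in any library.

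Many genes of the cells beside the egg cell fell too. Of 11 tested central cell genes, 9 fell and 2 did not pass, with a median of -1.83, led by AT3G24510 (-3.53), AT3G04540 (-3.96), AT3G10890 (-3.26) and AT2G20595 (-2.22). The number was 5 without PRP8Aa prp8bb replicate 3 and 6 to 8 without any other single library. Of 5 tested synergid genes, 2 fell, the attractant genes LURE1.3 (-3.24) and LURE1.5 (-2.34). LURE1.1 (-1.34, adjusted p = 0.0806), the synergid regulator MYB98 (-1.05, adjusted p = 0.185) and NTA (-0.18, adjusted p = 0.842) did not pass. LURE1.2, LURE1.4 and LRE were below the count filter. Among the named genes that fell, AT3G04540 (6, 2 and 3 counts in PRP8Aa prp8bb, 42, 55 and 79 in WT) passed that filter only through WT. So did AT3G24510 (10, 4 and 7 counts in PRP8Aa prp8bb, 62, 95 and 87 in WT). The same held for AT3G10890 (9, 4 and 9 counts in PRP8Aa prp8bb, 68, 66 and 72 in WT). LURE1.3 (3, 1 and 9 counts in PRP8Aa prp8bb, 36, 34 and 54 in WT) did as well. LURE1.5 (10, 5 and 9 counts in PRP8Aa prp8bb, 28, 33 and 62 in WT) was a further case. AT2G20595 (15, 7 and 7 counts in PRP8Aa prp8bb, 38, 42 and 53 in WT) also needed WT libraries to pass. For such genes the selection itself favours a fall.

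Set against these neighbours within each library, the ratio of the egg cell sum to the synergid sum did not differ beyond the spread between libraries. Its log2 value was 1.64, 1.38 and 1.61 in PRP8Aa prp8bb, against 1.62, 1.69 and 1.38 in WT (difference -0.02, exact permutation p = 0.7). The log2 ratio to the summed central cell list was lower by 1.52 in PRP8Aa prp8bb, but its direction depended on 1 gene. DME, a DNA glycosylase gene listed for the central cell, held most of that list's counts and did not pass the test. With DME left out, a choice made after seeing the data, the log2 ratio was 0.81, 0.59 and 0.50 in PRP8Aa prp8bb, against -0.07, 0.07 and 0.02 in WT, a difference of 0.63. The groups did not overlap, and both p-values were 0.1 (exact two-sided permutation test), the smallest possible here. The other central cell genes summed to 21.0% of their WT level, and the egg cell genes to 32.9%.

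Markers of other tissues moved unevenly. Integument and ovule identity genes gave 3 that fell of 8 tested: STK (-0.63), SHP2 (-0.42) and BAN (-4.21), a proanthocyanidin enzyme gene of the inner integument. Without WT replicate 3 or PRP8Aa prp8bb replicate 3 this count was 0, and without PRP8Aa prp8bb replicate 1 or 2 it was 1 (STK). BAN was also lost with the replicate block (adjusted p = 0.057) and with no filter on low counts (0.0784), and SHP2 with limma-voom (0.0549), the block (0.0959), exon bin counts (0.0632) and without WT replicate 2 (0.157). INO (-0.39), ANT (0.32), BEL1 (0.13), ATS (-0.17) and SHP1 (-0.00) did not pass. Among 8 pollen genes, PPME1 (2.28) and AT2G21480 (0.72) were higher and the other 6 did not pass (VGD1 0.57, AGP6 0.83, AGP11 0.25, ANX1 0.91, ANX2 0.23 and AT4G39110 0.20). Without PRP8Aa prp8bb replicate 2, 6 of the 8 were higher, and the count was 0 without WT replicate 2 or 3 or PRP8Aa prp8bb replicate 3 and 1 without PRP8Aa prp8bb replicate 1 (PPME1). PPME1 was also lost with no filter (adjusted p = 0.0773) and AT2G21480 with exon bin counts (0.0629), while AGP6 was higher with DESeq2 (0.00924). Their summed level was 761, 299 and 604 CPM in PRP8Aa prp8bb, against 363, 360 and 356 CPM in WT, so it varied widely among the PRP8Aa prp8bb libraries, lowest in replicate 2 as for most egg cell genes, and its part in the egg cell values was not tested. Of the sperm cell genes, HAP2, which encodes the fusion protein of sperm cells (0.47, adjusted p = 0.645), and GEX1 (0.35, adjusted p = 0.692) did not pass. GEX2, DUO1, MGH3, DAU2 and AT1G09157 were below the count filter. DAU2 had 10, 10 and 11 counts in PRP8Aa prp8bb, against 0, 3 and 4 in WT, without overlap. Of the early endosperm and embryo genes, AGL62 (-0.85, adjusted p = 0.393) and WOX9 (1.02, adjusted p = 0.0688) did not pass, although WOX9 was higher with DESeq2 (adjusted p = 0.0049), the replicate block (0.035), exon bin counts (0.0293) and without PRP8Aa prp8bb replicate 1 (0.00432), and PHE1, AGL36, AGL28, PEI1 and LEC1 had too few counts to be tested.

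The genes beside the members in the genome were read as well. AT2G21727, an ECA1 family gene 2906 bases from EC1.2, fell (log2 fold change -2.46, edgeR adjusted p = 0.00652). None of the other 8 tested flanking genes outside the 7 passed, among them FEI2, 23 bases from ECS2 (0.04), and CAD9, 111 bases from EC1.4 (-0.25).

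The genes whose profile over the 6 libraries was most like the mean profile of the 7 members were ranked among 18861 genes by the root mean square difference of centred log2 CPM. DD46 (AT1G22015), described as a galactosyltransferase, was the closest at 0.043, followed by the DUF1278 gene AT2G27315 at 0.083. Next came AT1G11330, a receptor-like kinase gene (0.116), AT5G52130 (0.124), the glycosyl hydrolase gene AT3G10900 (0.126), AT5G65040 (0.137), AT5G22970 (0.144) and the defensin-like gene AT2G12475 (0.145). The median over all genes was 0.847. Among the members themselves ECS2 was nearest to the common profile (0.107) and EC1.2 farthest (0.496). DD46 had 4.54, 2.43 and 3.97 CPM in PRP8Aa prp8bb, against 11.7, 10.1 and 11.3 CPM in WT. Its low PRP8Aa prp8bb replicate 2, shared with most members, follows from its choice by likeness to their profile. All 8 genes were lower in PRP8Aa prp8bb (log2 fold change from -1.34 to -1.62), as any gene close to this profile must be.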

How the data were processed

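RNA of ovules was sequenced as stranded, ribosome-depleted total RNA in paired reads of 100 bases, per the labels. The submitters' processing notes name Trimmomatic, STAR, DESeq2, and featureCounts from Subread 1.6.0, with the TAIR10 genome. The deposited gene counts are whole numbers of fragments, not normalized, counted with strand setting 1 on annotation release 37, per the file headers. Counts for exon bins were deposited as well. A further table by the authors compares the groups and holds log2 fold changes, a mean normalised signal, a standard error (stored as a score) and adjusted p-values.

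Gene counts were tested with edgeR 4.0.16 in R 4.3.3 (quasi-likelihood fit with the robust option, filterByExpr, TMM scaling and no covariates), with Benjamini-Hochberg adjustment over 19297 genes and a threshold of 0.05. The biological coefficient of variation was 14.9%. CPM and RPKM use TMM-scaled library sizes, and RPKM also the length of the gene model. On simulated data with 19093 genes, the test recovered 95.8% of genes lowered 4-fold and 56% of those lowered 2-fold, with 25 of 18895 unchanged genes called.

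Groups came from the sample titles. The replicates are called biological, but separate plants are not named, so p-values cover only the spread between libraries, part of which may be technical. Sequences were read from RefSeq TAIR10.1, where 99.95% of 32536 genes found by identifier have the same start and end, and aligned with Biopython 1.88 and MAFFT 7.526. Intron data were not used here, since the 7 genes have a single exon.

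The members, lists, tests and alternatives were chosen with earlier results of these data known. Named genes are the 7 members, whole lists of up to 8 genes, the up to 4 genes of smallest p past the threshold in longer lists, and the 8 closest profiles of at least 1 CPM. Flanking genes, AT5G52975, DME and the DUF1278 list were chosen after values were seen.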

Additional observations from a re-analysis of the deposited data

How the results depend on the processing

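With 16 alternatives (DESeq2, other size factors, other filters, limma-voom, a replicate block, organelle genes left out, WT replicate 1 halved, exon bin counts, each library left out), the number of egg cell genes that fell was 6 in 8 of them, 5 with the replicate block, where EC1.5 had adjusted p = 0.0677, and 4 with exon bin counts, where EC1.3 had 0.076 and EC1.5 had 0.0643. Leaving out each library gave 3 to 5 of these genes, 181 to 707 lower genes and 250 to 692 higher genes of all tested, against 539 and 589 with all 6 libraries. The replicate block, which pairs libraries by number, lowered those counts to 423 and 463, but same-numbered libraries did not deviate together (r = -0.049, -0.044 and 0.089). The cause of the lost calls was not tested.

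With single libraries left out, the ratios to ECS and to the synergid list and the shares of EC1.1, EC1.3 and EC1.5 changed sign, and the ratio to the central cell list and the shares of EC1.2 and EC1.4 did not. The EC1 to ECS difference ranged from -0.02 to 0.20, the egg cell to synergid difference from -0.11 to 0.06, and the egg cell to central cell difference from -1.76 to -1.22. The last was 0.37 with mean log2 CPM over genes and 0.63 without DME. Leaving out each library moved the differences in share to -2.3 to 4.3 points for EC1.1, 3.2 to 8.0 for EC1.2, -3.7 to 3.7 for EC1.3, -5.1 to -2.0 for EC1.4 and -7.1 to 0.9 for EC1.5. Among the genes outside the 7 that did not pass, leaving out each library gave -0.06 to 0.22 for SUF4, -0.41 to 0.09 for NTA, -0.07 to 0.53 for AGP11, -0.08 to 0.58 for ANX2 and -0.01 to 0.50 for AT4G39110. SHP1 was 0.00 with no filter, 0.01 with limma-voom or WT replicate 1 halved, 0.13 with exon bins and -0.10 to 0.10 with a library left out.

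The EC1 genes rest on 5 to 77 counts per library, which limits the precision of their fold changes.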
